A study of Arabidopsis thaliana with 4 samples.

Results

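The genes described here were ATG8B, ATG8C, ATG8D, ATG8E, ATG8F, ATG8G and ATG8H, which encode ATG8 proteins of Arabidopsis thaliana. They were chosen by name: each was the only gene listed for 1 probe set, the set of short oligonucleotides that reads 1 transcript on an Affymetrix ATH1 array. These 7 genes were among 13356 genes with a probe set of their own. RNA came from whole seedlings of the wild type (ecotype Columbia) and of a phyA phyB double mutant in the same ecotype, with alleles phyA-211 and phyB-9, which lacks phytochromes A and B, the main receptors of red and far-red light. Both genotypes were sown on 0.8% agar, kept cold (6 °C) for 5 days, lit with white light for 1 h at 22 °C and then held in darkness at that temperature for 3 days. Each genotype had 2 arrays, and the series asks how the transcriptome of dark-grown seedlings differs without both receptors.

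ATG8 is a small ubiquitin-like protein of autophagy, the process in which a double membrane encloses cytoplasm and delivers it to the vacuole for breakdown. The protease ATG4 exposes a glycine at the end of ATG8, the activating enzyme ATG7 and the conjugating enzyme ATG3 then join that glycine to the membrane lipid phosphatidylethanolamine, and the lipid-bound form helps to build the membrane and to dock cargo receptors. Arabidopsis has several paralogues. Those from ATG8A to ATG8G carry residues beyond the glycine and need ATG4 for it to be exposed, whereas ATG8H and ATG8I end at the glycine. A seedling in darkness does not photosynthesise and lives on its seed reserves, and autophagy is known as a route that recycles amino acids and other substrates when carbon runs short. These arrays measured transcripts and not autophagy itself.

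The summed intensity per array ran from 76027250 to 77974921, and the 4 trimmed means differed by 0.0946%. Across the 13648 tested probe sets, log2 values of mutant array 1 correlated with the wild-type arrays at 0.892 and 0.875, and those of mutant array 2 at 0.942 and 0.93; the wild-type arrays correlated at 0.945 with each other and the mutant arrays at 0.909. These correlations run over probe sets, which are not independent replicates. Mutant array 1 thus stood apart from the other arrays, and results are given for each mutant array. No named probe set read PHYA or PHYB, so the genotype labels were not checked against the mutated genes. The labels do not say whether the arrays of a genotype stem from separate cultures, and p-values therefore reflect only the spread among these arrays, which may be technical.

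All 7 ATG8 probe sets passed the filter on dim probe sets, which kept the brightest 60% by mean intensity. Among the tested probe sets, ATG8G lay below the median on wild-type array 2 and both mutant arrays, and ATG8B on mutant array 1. Each member was brighter than at least 60.1% of all probe sets on every array. The probe set with the dimmest mean was that of ATG8G, at 1832, and the one with the brightest mean was that of ATG8F, at 36506. Probe sets of different genes bind their targets with different strength, so these intensities do not rank the paralogues by transcript abundance. The comparisons that follow set each gene only against itself across arrays, or follow how the balance between paralogues moved from array to array. The paralogues resemble each other in sequence, and whether a probe set also bound RNA of another paralogue was not tested.

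Every member had a lower mean in the phyA phyB seedlings, by 0.10 to 0.50 on the log2 scale, but no member passed the test. The log2 scale here is log2(intensity + 70.1), where the constant is the 10th percentile of all values and slightly shrinks differences. Mutant over wild type, the fold lay between 0.706 for ATG8E and 0.935 for ATG8H. In limma, 0 of 7 members had an adjusted p under 0.05 (Benjamini-Hochberg over all tested probe sets; adjusted p from 0.737 to 0.954), where 0.0953% of all tested probe sets were called. With no adjustment, 0 of 7 had a p under 0.05 in limma, against 7.24% of tested probe sets. A lower mean in the mutant was found for 49.5% of all tested probe sets, so a lower mean by itself is common. The genotypes did not overlap for 3 of 7 members, ATG8C, ATG8D and ATG8F. Their mutant arrays were both under the lower wild-type array, an order found for 18.3% of tested probe sets. The opposite order, with both mutant arrays above both wild-type arrays, was found for 0 members and for 2740 of the 13648 tested probe sets. A lack of overlap in either direction was thus common. The remaining 4 members overlapped between the genotypes.

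Of the genes that need ATG4, ATG8C was among the 3 without overlap. Its intensity was 5401 and 6943 on wild-type arrays 1 and 2, and 3990 and 5259 on mutant arrays 1 and 2. The wild-type arrays were thus higher, but mutant array 2 lay close under wild-type array 1. The log2 mean went from 12.60 ± 0.25 to 12.18 ± 0.28 (SD, n = 2 each), a difference of -0.41 (SE 0.26; limma, adjusted p = 0.737). The 95% interval of that difference, -0.99 to 0.16, holds 0.

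ATG8D had intensities of 4146 and 4852 in the wild type and of 3216 and 3879 in the mutant. Its arrays had the same order as those of ATG8C, with wild-type array 2 highest and mutant array 1 lowest. The log2 difference was -0.34 (SE 0.24; 95% interval -0.89 to 0.21; limma, adjusted p = 0.768).

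ATG8F had intensities of 40774 and 37741 in the wild type and of 31748 and 35760 in the mutant. The genotypes did not overlap, although mutant array 2 was closer to wild-type array 2 than to mutant array 1. With the narrowest interval of the 7, the log2 difference was -0.22 (SE 0.20; 95% interval -0.66 to 0.23; limma, adjusted p = 0.812). Its highest array was 1.28 times its lowest, the smallest ratio among the members.

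ATG8E varied most, and its highest array was 2.28 times its lowest. Its intensity was 8455 and 15107 on the wild-type arrays and 6623 and 9555 on the mutant arrays. Wild-type array 2 stood far above the other arrays, and mutant array 2 was above wild-type array 1, so the genotypes overlapped. The ratio of wild-type array 2 to wild-type array 1 was 1.79, a gap of 0.83 on the log2 scale. That gap exceeded the genotype difference of -0.50 (SE 0.31; 95% interval -1.21 to 0.20; limma, adjusted p = 0.737), the largest in size of the members.

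ATG8B had intensities of 2497 and 3104 in the wild type and of 2004 and 2733 in the mutant. Mutant array 2 fell between the wild-type arrays, and mutant array 1 was below both. The log2 difference was -0.24 (SE 0.27; 95% interval -0.85 to 0.36; limma, adjusted p = 0.849).

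ATG8G was the only member whose lowest array was not mutant array 1. Its intensity was 2354 and 1665 on the wild-type arrays and 1710 and 1599 on the mutant arrays. Wild-type array 1 alone was high, and the other 3 arrays lay close together. The log2 difference was -0.25 (SE 0.28; 95% interval -0.89 to 0.39; limma, adjusted p = 0.851), smaller in size than the wild-type gap of -0.48 from array 1 to array 2.

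ATG8H, the member whose protein ends at the glycine, had intensities of 5463 and 5719 in the wild type and of 4008 and 6799 in the mutant. The wild-type arrays lay between the mutant arrays. Its wild-type SD of 0.05 was the smallest of the 7 on the log2 scale, and its mutant SD of 0.53 the largest. The log2 difference was -0.10 (SE 0.28; 95% interval -0.74 to 0.54; limma, adjusted p = 0.954). It was the only member for which the mutant arrays lay on opposite sides of both wild-type arrays, by -0.47 (array 1) and 0.28 (array 2) from the wild-type mean.

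**Figure D1:**
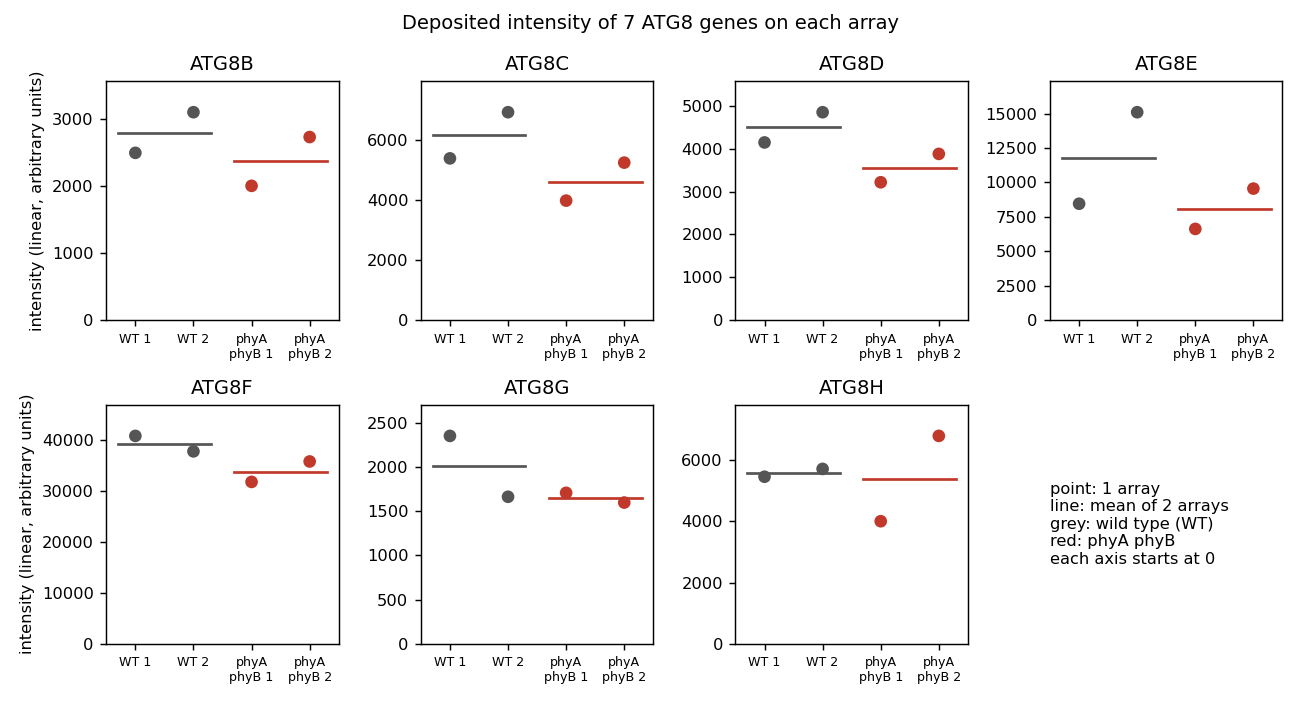
Deposited linear intensity (arbitrary units, each axis from 0) of the 7 ATG8 genes on the 2 wild-type arrays (grey) and the 2 phyA phyB arrays (red), with points for arrays and lines for means of 2. ATG8C, ATG8D and ATG8F have both red points below both grey points, and ATG8H has its grey points between the red ones.

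The intervals show what these arrays could resolve. Over the 7 members, the lower bound of the 95% interval of the fold, mutant over wild type, ran from 0.433 to 0.631 and the upper bound from 1.12 to 1.46. A fold under 0.433 or over 1.46 thus lay outside the interval of every member, and folds close to 1 on either side lay within it. The number of arrays limits this precision. For 4 of the 7 members, ATG8B, ATG8E, ATG8G and ATG8H, the larger of the gaps between arrays of a genotype exceeded the genotype difference. How often this held over all tested probe sets was not counted, so it is not read as a trait of the members.

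**Figure D2:**
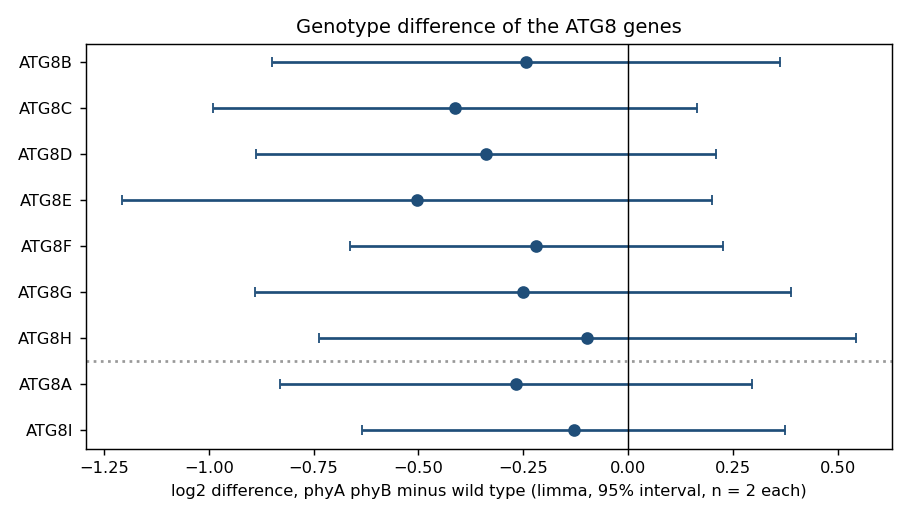
Log2 difference, phyA phyB minus wild type, for the 7 genes and, below the dotted line, for ATG8A and ATG8I, with points for the limma estimate and bars for its 95% interval (n = 2 each). All 9 points lie below 0 and all 9 bars cross it.

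For 6 of the 7 members, all but ATG8G, the difference was larger on mutant array 1 than on mutant array 2. On array 1, the members lay between -0.76 (ATG8E) and -0.20 (ATG8G) from the wild-type mean, with a median of -0.47 where that of all tested probe sets was 0.00. On array 2 they lay between -0.30 (ATG8G) and 0.28 (ATG8H), with a median of -0.21 where that of all tested probe sets was 0.03. Mutant array 1 was below both wild-type arrays for 6 of 7 members and for 38.8% of all tested probe sets. Mutant array 2 was below both for 4 of 7 members and for 31.3% of all tested probe sets. Mutant array 1 was the lowest of the 4 arrays for 6 members, with ATG8G as the exception, and for 32.7% of all tested probe sets. Wild-type array 2 was the highest for 4 members, ATG8B, ATG8C, ATG8D and ATG8E, and for 24.6% of all tested probe sets.

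The arrays of 1 genotype also differed among themselves. Wild-type array 2 was above wild-type array 1 by a median of 0.22 over the members, with ATG8F and ATG8G in the other direction, where the median over all tested probe sets was -0.0015. Mutant array 2 was above mutant array 1 by a median of 0.39, with ATG8G in the other direction, where that of all tested probe sets was 0.03. The median genotype difference of the 7 members was -0.25, against 0.00 over all tested probe sets. It was -0.47 without mutant array 2 and -0.40 without wild-type array 1. Without mutant array 1 it was -0.21, and the difference of ATG8H then changed sign, to 0.28 (limma, adjusted p = 0.935). In bulk seedlings, fewer cells of a type and less RNA per cell cannot be told apart.

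**Figure D3:**
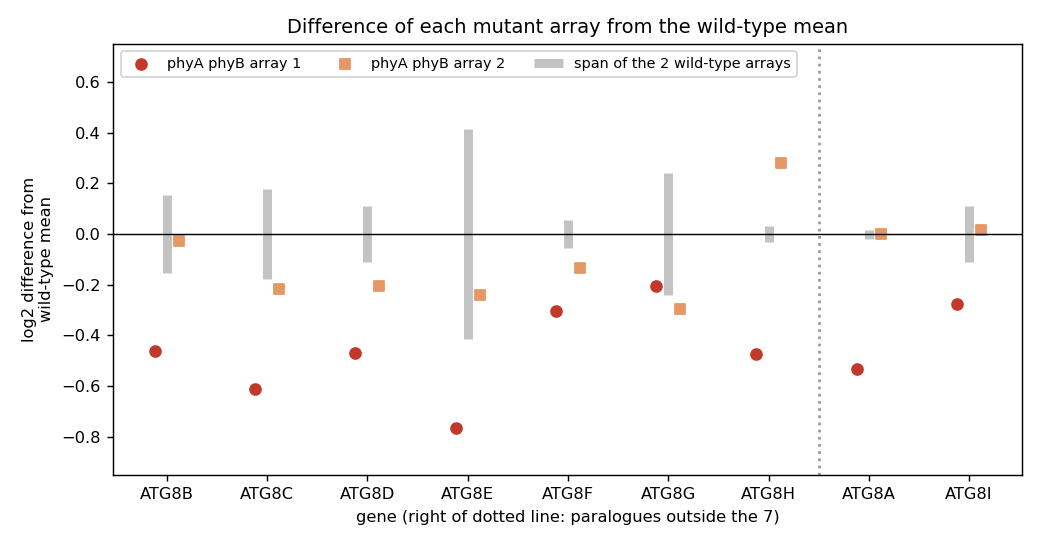
Log2 difference of mutant array 1 (circles) and mutant array 2 (squares) from the wild-type mean for each gene, with grey bars spanning the 2 wild-type arrays and ATG8A and ATG8I right of the dotted line. All circles lie below 0, and the square of ATG8H stands at 0.28.

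The balance between the paralogues was followed as the log2 value of each gene minus the median of the 7 members on the same array. A change in this value shows that a gene moved differently from the family. On each array the median member was ATG8C or ATG8H, whose value is 0 there by construction. For ATG8D it ranged by 0.20 over the 4 arrays, for ATG8B by 0.22, for ATG8F by 0.26, for ATG8C by 0.28 and for ATG8H by 0.37. ATG8E ranged most, by 0.75, from 0.64 on wild-type array 1 to 1.39 on wild-type array 2, with 0.72 and 0.85 on the mutant arrays. ATG8G ranged by 0.56, with -1.17 and -1.74 on the wild-type arrays and -1.19 and -1.67 on the mutant arrays, so that its range within each genotype was wide and its means were alike. Between genotypes, the mean balance moved by -0.23 for ATG8E, by 0.18 for ATG8H and by -0.14 for ATG8C. It moved by -0.064 for ATG8D and by less in size for ATG8B, ATG8F and ATG8G. The shift of ATG8E was smaller than its range within the wild type. That of ATG8H rested on mutant array 2, which had 0.37 where the other 3 arrays lay between 0.00 and 0.02. That of ATG8C rested on wild-type array 2, which had 0.28. On the other 3 arrays ATG8C was itself the median.

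The other 2 paralogues had probe sets under older symbols, APG8A for ATG8A and APG8H for the gene that RefSeq also names ATG8I. ATG8A, which needs ATG4, had intensities of 8757 and 8977 in the wild type and of 6101 and 8867 in the mutant. Mutant array 1 alone was low, and mutant array 2 lay between the wild-type arrays. The log2 difference was -0.27 (SE 0.25; limma, adjusted p = 0.819). ATG8I, which like ATG8H ends at the glycine, had 13898 and 16190 in the wild type and 12380 and 15162 in the mutant. Its log2 difference was -0.13 (SE 0.22; limma, adjusted p = 0.911), with mutant array 2 between the wild-type arrays. For both genes the difference on mutant array 2 was near 0, at 0.00 for ATG8A and 0.02 for ATG8I, and on mutant array 1 it was -0.53 and -0.28.

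The enzymes and regulators that act with ATG8 gave no common direction. Of 49 genes of the autophagy machinery and its upstream kinases put on a list, 14 were read by a named probe set, of which 11 passed the filter. None passed in limma, where 0.0953% of all tested probe sets were called, and 0 had an unadjusted p under 0.05, against 7.24%. In the mutant 4 had lower and 7 higher means, where 49.5% of all tested probe sets had a lower one. Both mutant arrays were below both wild-type arrays for 2 genes, against 18.3% of all tested probe sets. They were above both for 1 gene, against 2740 of the 13648 tested probe sets. The median of the 11 genes was 0.04. Against the wild-type mean it was -0.22 on mutant array 1 but 0.17 on mutant array 2. The median of the list turned to -0.026 under median centring of the arrays. Then 7 of the 11 genes had a lower mean, and without mutant array 2 it was 8.

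Only 3 of those 11 genes carry the list's name for them in RefSeq. ATG3, the enzyme that transfers ATG8 to its lipid, had intensities of 7102 and 5926 in the wild type and of 4564 and 7298 in the mutant, a log2 difference of -0.17 (95% interval -0.79 to 0.46; limma, adjusted p = 0.908). The wild-type arrays lay between the mutant arrays. ATG101 (AT5G66930), a subunit of the kinase complex that starts autophagy, had 2895 and 3274 in the wild type and 2670 and 3829 in the mutant, a difference of 0.05. RAPTOR1, a subunit of the TOR kinase complex that represses autophagy when nutrients are ample, had 3793 and 3974 in the wild type and 3394 and 4671 in the mutant, a difference of 0.04.

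The other 8 tested genes of that list are given in the tables by locus code only. The lowest were AT2G37840 at -0.66 (limma, adjusted p = 0.695), without overlap, and AT4G34660 at -0.32. The highest were AT3G61960 at 0.28, also without overlap, and AT3G59950 at 0.18.

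Genes listed for their response to darkness, sugar starvation or low energy had lower means in the mutant in all 9 tested cases, where 49.5% of all tested probe sets did, and none passed over all probe sets. The list held 29 genes, of which those 9 had a named probe set, and 2 of them had an unadjusted p under 0.05 in limma, against 7.24% of all tested probe sets. Their median log2 difference was -0.43. By array it was -0.58 (mutant array 1) and -0.29 (mutant array 2). Both mutant arrays were below both wild-type arrays for 8 of the 9, against 18.3% of all tested probe sets. They were above both for 0 of the 9, against 2740 of the 13648 tested probe sets. EXO, a growth gene that responds to brassinosteroids, overlapped between the genotypes, at -0.07. Under cyclic loess normalization, or without mutant array 2, 8 of the 9 had a lower mean. This list too was chosen with earlier results of these data known and is not independent evidence of its direction.

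MCCA, a subunit of the leucine-degrading enzyme methylcrotonyl-CoA carboxylase, was lowest in this list. Its intensity was 27520 and 24279 in the wild type and 10247 and 20399 in the mutant. The log2 difference was -0.83 (95% interval -1.53 to -0.14; limma, adjusted p = 0.628). AKINBETA1, a regulatory subunit of the energy-sensing kinase SnRK1, had 24642 and 23463 in the wild type and 11623 and 19631 in the mutant, a difference of -0.67 (limma, adjusted p = 0.661). Both genes were low on both mutant arrays and lowest on array 1. Without mutant array 2 these 2 genes passed, at -1.33 for MCCA (limma, adjusted p = 0.00851) and -1.04 for AKINBETA1 (limma, adjusted p = 0.0271). That fit takes its spread from the wild-type arrays, assumes that the lone mutant array varies like them, and called 2.91% of all tested probe sets. Without mutant array 1 none of the list passed. BZIP53, a transcription factor gene of the low-energy response, differed by -0.34, the highest value of the list after EXO.

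Genes that mobilise the oil of the seed gave 3 tested members of 18. All 3 had lower means, where 49.5% of all tested probe sets did. Under quantile or cyclic loess normalization, or without mutant array 1, 2 of the 3 did. None passed in limma, where 0.0953% of all tested probe sets were called, and 0 had an unadjusted p under 0.05, against 7.24%. ICL, for isocitrate lyase of the glyoxylate cycle, differed by -0.04, with intensities of 142038 and 138139 in the wild type and of 132927 and 139802 in the mutant. AIM1, of peroxisomal fatty acid oxidation, also differed by -0.04, and SDP1, the lipase that opens oil body breakdown, by -0.48. All 3 overlapped between the genotypes. Of all tested probe sets, 18.3% had both mutant arrays below both wild-type arrays, and 2740 of the 13648 had both above.

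Genes of the dry or maturing seed had higher means in the mutant. Of 21 such genes listed, 10 were measured by a named probe set, and all 10 passed the filter. All 10 had a higher mean in the mutant, where 49.5% of all tested probe sets had a lower one. At an unadjusted p under 0.05 in limma there were 9, against 7.24% of all tested probe sets. Both mutant arrays were above both wild-type arrays for 9, against 2740 of the 13648 tested probe sets. In limma 3 were called higher (adjusted p from 0.0205 to 0.0244), where 0.0953% of all tested probe sets were called. They were M17, a late embryogenesis abundant protein gene, at 3.74, PAP85, a vicilin-like storage protein gene, at 3.29, and AT3G54940 at 2.66. All 3 calls were lost when dim probe sets were kept (limma, adjusted p = 0.0528) and by eBayes without the trend (adjusted p = 0.504). That of M17 also ended by robust eBayes (adjusted p = 0.215), and that of AT3G54940 without wild-type array 1 or 2 (adjusted p = 0.0721 and 0.0975). AT2G28490 differed by 3.33, BGLU19, a beta-glucosidase gene, by 1.62 and OLEO3, an oleosin gene, by 0.23, none of them past the test. This list was chosen with its response in these arrays known and is not independent evidence of its direction. Its summed intensity was 39467 and 39629 on the wild-type arrays, 412159 on mutant array 1 and 142255 on mutant array 2. None of the 10 was at 0 on any array, the lowest value being 598.5, on wild-type array 2. Their median log2 difference from the wild-type mean was 3.54 on the first mutant array and 2.05 on the second, where the ATG8 medians were -0.47 and -0.21. The part of seed transcripts in the ATG8 values was not tested.

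**Figure D4:**
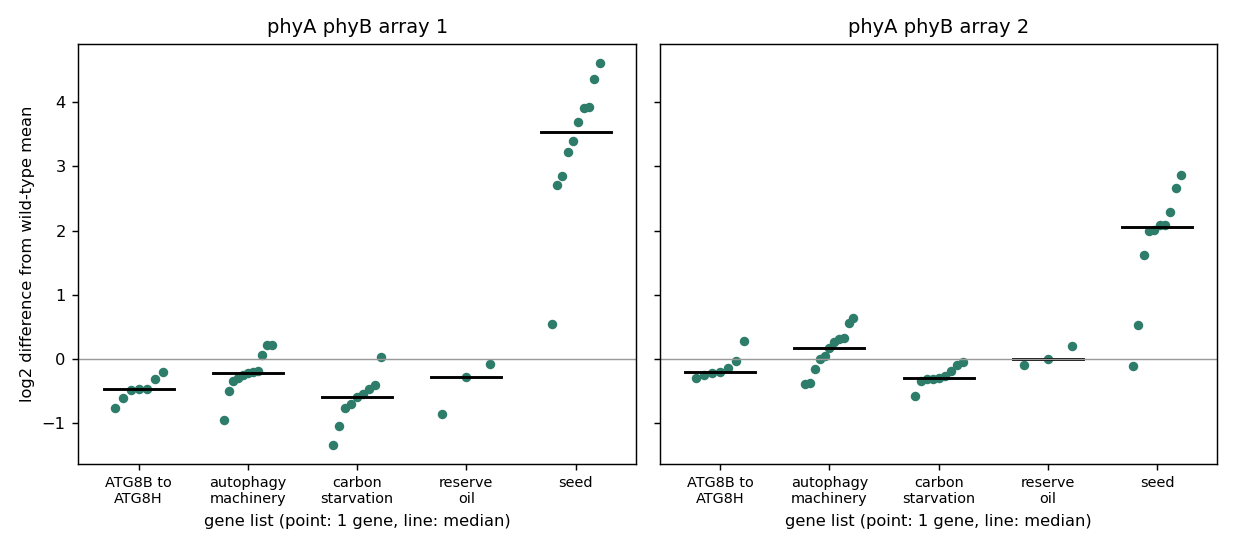
Log2 difference from the wild-type mean on mutant array 1 (left) and mutant array 2 (right) for the tested genes of 5 groups, with points for genes and lines for medians. The ATG8 medians are -0.47 and -0.21, those of the carbon starvation genes -0.58 and -0.29, and those of the seed genes 3.54 and 2.05.

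The genes with the array profile closest to the ATG8 median were sought among 7335 named probe sets outside the 7. A profile was the 4 log2 values minus their own mean, and likeness was the root mean square distance over the 4 arrays. The ATG8 median profile was 0.03 and 0.27 on the wild-type arrays and -0.34 and -0.01 on the mutant arrays. The closest were AT4G24200 (distance 0.0175), AT5G59480 (0.0179), AT1G61100 (0.019), AT1G30440 (0.0226) and AT4G00780 (0.0251), where the median distance of all candidates was 0.33. ATG8I ranked 224 and ATG8A ranked 283 among them. Within the 7, ATG8D was closest to the median profile, at 0.0275, and ATG8G farthest, at 0.301. With 4 arrays, such likeness describes these arrays alone.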

How the data were processed

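Transcripts were measured on 4 Affymetrix ATH1 arrays, 2 per genotype. The table deposited by the authors gave a linear intensity for each of 22746 probe sets on each array, already scaled, as their nearly equal trimmed means (2% removed at each end) show. Software and detection calls are not given in the sources used here. Wild-type replicate 1 was numbered by order. Names came from the platform annotation, updated through RefSeq (TAIR10.1), which matched 13436 of 13513 probe sets with 1 gene.

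Values were tested as log2(intensity + 70.1) with limma 3.58.1 in R 4.3.3 (lmFit, eBayes with an intensity trend) over the 13648 brightest probe sets, with Benjamini-Hochberg adjustment at 0.05. With 2 arrays a genotype, the smallest two-sided p of an exact permutation test is 0.333, so none was run. The members and lists were chosen with earlier results of these data known, so lists are described by counts and medians. Genes named were all members, any list gene past the threshold, the 2 highest and 2 lowest of each list, and the 5 closest profiles; ATG3, ATG101 and RAPTOR1 were chosen after their values were seen. Alternatives covered scaling, pseudocount, filter, variance model and each array left out. No sequences are shown, and the planned comparison of protein and promoter sequences was not run. Figures were drawn with matplotlib 3.10.9.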

Additional observations from a re-analysis of the deposited data

How the results depend on the processing

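Over 13 alternatives, 90 of 91 member differences kept their sign and 0 passed the threshold. The lowest adjusted p of a member was 0.667 with all 4 arrays and 0.237 with an array left out (limma). The exception in sign was ATG8H without mutant array 1, at 0.28. Sizes moved more with arrays left out, except for ATG8F, which was -0.10 under cyclic loess normalization with all 4 arrays. With an array left out, ATG8B ran from -0.46 to -0.026, ATG8C from -0.61 to -0.22 and ATG8D from -0.47 to -0.21. ATG8E ran from -0.92 to -0.087, ATG8F from -0.30 to -0.13, ATG8G from -0.49 to -0.0093 and ATG8H from -0.47 to 0.28. Among these fits, ATG8G was nearest 0 without wild-type array 1 and ATG8E without wild-type array 2. For ATG8B, ATG8C, ATG8D and ATG8F this was so without mutant array 1. The family median ran from -0.31 to -0.22 under the settings with 4 arrays and from -0.47 to -0.21 with an array left out. The count over all probe sets, 13, became 27 under median centring, 3 without a filter, 0 by eBayes without the trend and 988 at an unadjusted p under 0.05, and ran from 10 to 397 with an array left out. The machinery median of 0.04 became -0.026 under median centring and ran from -0.22 to 0.17 with arrays left out; centring moves every gene alike, and otherwise the cause was not tested. Carbon starvation calls ran from 0 to 2 with arrays left out. No paired analysis was possible because the labels number only 1 wild-type array. Each member had 1 probe set, so the alternative of several probe sets did not apply. Without signal over background in the files, dimness could be judged only from intensity.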
